A study of Mus musculus with 16 samples.

Results

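The 6 genes examined were the cyclin-dependent kinase inhibitors Cdkn2a, Cdkn2b, Cdkn2c and Cdkn2d of the INK4 family and Cdkn1a and Cdkn1b of the CIP/KIP family. They were taken by name from a RefSeq table of mouse genes, in which 21631 protein-coding genes lie on chromosomes 1 to 19 and X, and all 6 were found. The mark measured was H3K27me3, trimethylation of lysine 27 of histone H3, mapped in splenic B cells by ChIP-seq, the sequencing of DNA from immunoprecipitated chromatin. The cells came from C57BL/6 mice 6 to 8 weeks old, were purified with CD43 magnetic beads, and were cultured for 48 hours with 2 ng/mL BAFF and 2 ng/mL IL-4. Wild-type (WT) cells and Ifih1/Rigi/cGAS triple mutant cells, which carry mutations in 3 genes for sensors of nucleic acids in the cytosol, each received the solvent DMSO or 1 µM GSK343. GSK343 is an inhibitor of EZH2, the enzyme that places H3K27me3. The kind of mutation in each sensor gene is not given in the labels, nor is whether animals were pooled. The BAFF and IL-4, both of which sustain B cells in culture, were common to all groups.

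INK4 proteins bind CDK4 and CDK6 and keep D cyclins from activating them, which holds the retinoblastoma protein in its growth-restraining form. CIP/KIP proteins bind a wider range of cyclin and kinase pairs, those of CDK2 among them. Cdkn2a encodes 2 unrelated proteins from 2 start sites: the inner start gives Ink4a, the kinase inhibitor, and the outer start gives Arf, which protects p53 by binding its antagonist Mdm2. Silencing of Cdkn2a and Cdkn2b by Polycomb complexes is a textbook case of H3K27me3 control in dividing cells, lymphocytes included.

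The 16 samples formed 8 groups of 2, with ChIP and input kept apart for every combination of genotype and treatment. Each combination has 1 deposited list of broad H3K27me3 peaks, and these 4 lists gave the values used. Their peak names carry a folder name for pooled duplicates. In the mutant lists the name prefix ends in 1, so it is not certain that they rest on both replicates. The files do not give read depth, and there is a single list for each combination. Every difference between lists below therefore describes those lists, with no spread between replicates and no test. In WT cells there were 39495 peaks under DMSO and 11903 under GSK343, and in mutant cells 49803 and 10847. As a check of the cell type, 0 of 10 B cell marker genes had a peak in the gene body in any of the 4 lists. In both DMSO lists a body peak lay on 4 of 7 T cell markers (Cd3e, Cd3g, Cd4, Thy1), 3 of 6 myeloid markers, 1 of 3 erythroid markers and 0 of 3 NK cell markers. Of all protein-coding genes, 31.8% had a body peak in WT DMSO and 34.6% in mutant DMSO.

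The start sites of the 6 genes were examined first, because H3K27me3 in mammals is known to gather at promoters rich in CG. RefSeq (GRCm38.p6) gave 9 promoter windows for the 6 genes, each running from 250 bases before a start to 50 bases after it. Only 3 of the 9 had a base in a WT DMSO peak, the 2 of Cdkn2a and the 1 of Cdkn2b. Over all 32619 windows the share was 18.1%. The same 3 had a base in a mutant DMSO peak, where the share over all windows was 20.5%. All 3 lay in a single mutant DMSO peak, and the 2 of Cdkn2a in a single WT DMSO peak, so they are not independent. Those 3 are shown here beside 2 windows without a peak in any list, that of the inner Cdkn1a start and that of Cdkn1b. All are written 5′ to 3′ along the transcribed strand, with each CG in capitals.
Cdkn2a, outer start (Arf), chr4:89294570-89294869, minus strand: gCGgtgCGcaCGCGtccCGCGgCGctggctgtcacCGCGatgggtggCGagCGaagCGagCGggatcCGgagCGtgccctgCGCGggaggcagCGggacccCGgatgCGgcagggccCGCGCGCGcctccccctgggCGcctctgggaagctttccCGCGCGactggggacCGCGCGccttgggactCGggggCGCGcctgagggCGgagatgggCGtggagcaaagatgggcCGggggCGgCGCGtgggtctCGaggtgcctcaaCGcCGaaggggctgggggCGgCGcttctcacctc
Cdkn2a, inner start (Ink4a), chr4:89282143-89282442, minus strand: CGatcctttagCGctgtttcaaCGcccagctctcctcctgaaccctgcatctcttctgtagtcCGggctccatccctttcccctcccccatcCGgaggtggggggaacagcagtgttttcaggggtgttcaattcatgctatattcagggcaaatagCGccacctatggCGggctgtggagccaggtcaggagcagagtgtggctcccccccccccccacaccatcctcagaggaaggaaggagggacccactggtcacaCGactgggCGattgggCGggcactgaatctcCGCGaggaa
Cdkn2b, chr4:89310983-89311282, minus strand: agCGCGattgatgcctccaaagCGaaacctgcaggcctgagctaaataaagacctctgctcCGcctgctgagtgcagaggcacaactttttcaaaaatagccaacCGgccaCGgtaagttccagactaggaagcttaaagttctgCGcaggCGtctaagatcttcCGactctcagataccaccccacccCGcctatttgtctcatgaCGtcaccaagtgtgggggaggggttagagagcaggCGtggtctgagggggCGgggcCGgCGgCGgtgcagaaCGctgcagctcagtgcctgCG
Cdkn1a, inner start, chr17:29093519-29093818, plus strand: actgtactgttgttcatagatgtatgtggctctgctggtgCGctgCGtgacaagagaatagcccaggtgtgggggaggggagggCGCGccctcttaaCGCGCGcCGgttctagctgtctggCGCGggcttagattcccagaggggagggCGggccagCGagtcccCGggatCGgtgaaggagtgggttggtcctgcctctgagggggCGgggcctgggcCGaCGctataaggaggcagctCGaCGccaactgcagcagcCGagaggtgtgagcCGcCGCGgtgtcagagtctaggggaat
Cdkn1b, chr6:134920151-134920450, plus strand: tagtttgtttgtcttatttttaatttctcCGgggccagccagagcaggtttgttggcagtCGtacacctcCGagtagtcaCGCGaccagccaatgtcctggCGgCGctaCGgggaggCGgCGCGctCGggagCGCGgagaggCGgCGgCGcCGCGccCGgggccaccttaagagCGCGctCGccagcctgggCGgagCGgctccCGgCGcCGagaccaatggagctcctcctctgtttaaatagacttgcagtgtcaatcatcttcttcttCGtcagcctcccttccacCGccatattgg

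The number of CG in the window did not separate the marked starts from the unmarked ones. CG reads the same on both strands, and 94.7% of all windows held at least 1, with a median of 7. The marked windows held 45 CG at the outer Cdkn2a start, 12 at the inner Cdkn2a start and 18 at Cdkn2b. The windows without a peak in any list held 30 at Cdkn1b, 33 and 8 at the outer and inner Cdkn2c starts, 22 at Cdkn2d, and 2 and 23 at the outer and inner Cdkn1a starts. Among all windows with at least 20 CG, 24.2% had a base in a WT DMSO peak and 24.8% in a mutant DMSO peak. Under GSK343 the shares were 20.3% in WT and 18.4% in mutant cells. So the 4 of the 6 unmarked windows that hold at least 20 CG belong with the larger share of such windows. Both Cdkn2a windows lay wholly within peaks, 300 of 300 bases, in all 4 lists. The Cdkn2b window was covered over 300 bases in both DMSO lists, over 70 bases in WT GSK343 and over 0 bases in mutant GSK343. All promoter windows together had a base in a peak in 11.3% of cases in WT GSK343 and 10.5% in mutant GSK343. The 70 bases of the Cdkn2b window covered in WT GSK343 were those nearest the gene, at the 3′ end of the sequence as written.

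Coverage was then measured over each gene body plus 20 kb each side, called the window of the gene below, as the share of its bases inside peaks. Cdkn2a and Cdkn2b were largely covered under DMSO and kept part of that coverage under GSK343. Cdkn1a and Cdkn2c had small separate peaks, and Cdkn2d and Cdkn1b had none. Counted by any base in a peak, 4 of the 6 windows were marked in WT DMSO, 3 in WT GSK343 and 4 in each mutant list. The same rule took in 59.6% of all protein-coding genes under DMSO and 37.3% under GSK343 in WT cells, and 64.8% and 34.1% in mutant cells, so a window with some peak is common. At least 50% of the window was covered for 2 of the 6 in each DMSO list, against 2.75% of all genes in WT DMSO and 5.13% in mutant DMSO. Under GSK343 it was 0 of 6 in both genotypes, against 0.277% in WT and 0.213% in mutant cells. The median covered share of the 6 was 6.84% under DMSO and 2.06% under GSK343 in WT cells, and 11.3% and 0.743% in mutant cells. Over all genes the medians were 1.45% and 0% in WT cells and 3.25% and 0% in mutant cells. A peak in the gene body itself was found for 3 of the 6 (Cdkn2a, Cdkn2b and Cdkn1a) in each of the 4 lists. Under GSK343 21.4% of all genes had 1 in WT and 20.3% in mutant cells.

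**Figure D1:**
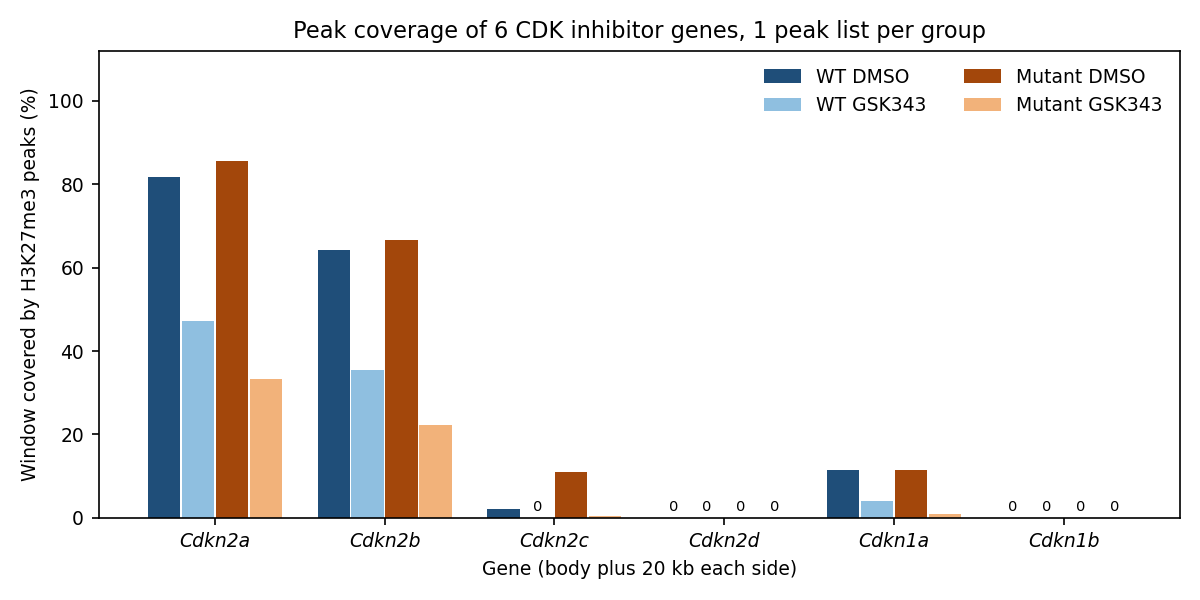
Share of bases inside H3K27me3 peaks (y axis, percent) over the body plus 20 kb each side of the 6 genes (x axis), 1 bar for each peak list, with no error bars because each group has 1 list. Cdkn2a and Cdkn2b stand between 64.3% and 85.5% under DMSO, while Cdkn2d and Cdkn1b are at 0% in all 4 lists.

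Cdkn2a (chromosome 4, 89274473 to 89294619, minus strand) had 81.7% of its window in WT DMSO peaks and 47.3% in WT GSK343 peaks. In mutant cells the share was 85.5% under DMSO and 33.2% under GSK343. Each value was higher than that of at least 99.3% of all protein-coding genes in the same list. The share under GSK343 was below that under DMSO by 42.1% in WT and by 61.1% in mutant cells. A lower share under GSK343 was near universal, seen in 99.6% of WT genes and 99.9% of mutant genes with a DMSO peak. Among the 594 genes at least 50% covered in WT DMSO, the GSK343 to DMSO ratio had a median of 0.440, against 0.579 for Cdkn2a, and 78.1% of those genes had a lower ratio than Cdkn2a. In mutant cells the median over 1110 such genes was 0.212 and the ratio of Cdkn2a 0.389, with 80.7% of the genes lower. Both Cdkn2a and Cdkn2b had a ratio above 0.5 in WT cells, where 62.5% of the widely covered genes were at or under 0.5, and both were under 0.5 in mutant cells, as were 89.5% of such genes. Cdkn2a thus kept more of its coverage than most widely covered genes, in each genotype by its own comparison. Those genes were not matched to Cdkn2a by their share under DMSO. Whether Cdkn2a differs from genes as highly covered as itself was not tested.

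Cdkn2b (chromosome 4, 89306289 to 89311032, minus strand) encodes Ink4b, the INK4 protein known as a target of TGF-β signalling. In WT cells its window was covered by 64.3% under DMSO and 35.5% under GSK343, and in mutant cells by 66.5% and 22.2%. The GSK343 to DMSO ratios were 0.552 and 0.334. The ratio was lower in 73.7% of the widely covered WT genes and in 73.1% of the mutant ones. The Cdkn2a and Cdkn2b bodies lie 11.7 kb apart, so their windows share many of the same peaks and the values are not independent.

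**Figure D2:**
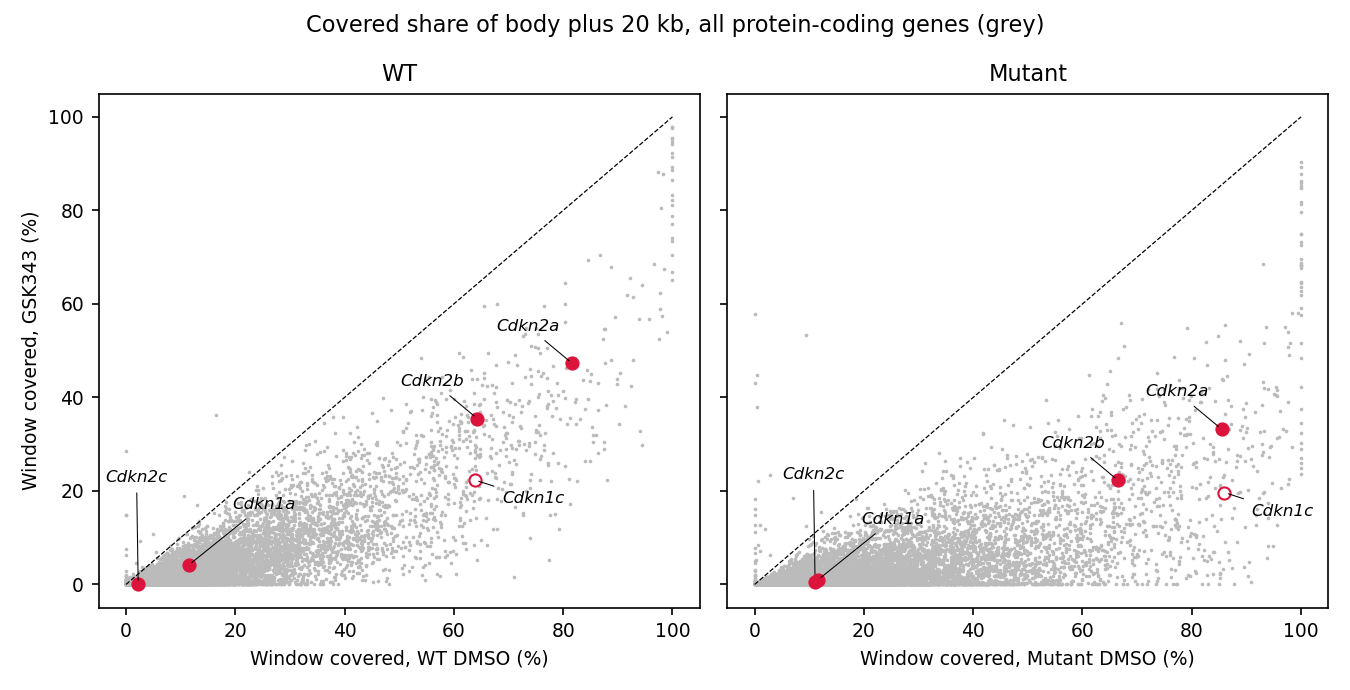
Covered share of the body plus 20 kb under DMSO (x axis, percent) and GSK343 (y axis, percent) for WT (left) and mutant (right) lists, with all 21631 protein-coding genes in grey, the 4 genes with a peak as filled red points, Cdkn1c as an open point and equal shares as a dashed line. Cdkn2a and Cdkn2b lie high along the x axis in both panels, and Cdkn1a and Cdkn2c lie near the origin.

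The peaks over the 2 genes were followed as 1 domain. In WT DMSO, 2 peaks held both gene bodies. The first, of 26.4 kb, ran from 89270913 to 89297353 over Cdkn2a, and the second, of 17.7 kb, ran from 89298397 to 89316096 over Cdkn2b, 1043 bp further on. Their folds over background, the authors' own values for each peak, were 3.91 and 3.55, above 97.0% and 93.7% of the peaks of that list. In mutant DMSO a single peak of 45.9 kb, from 89270194 to 89316050, held both genes. Its fold was 4.58, above 99.0% of its list, and 65 of the 49803 peaks were wider. The outer edges of the WT and mutant DMSO peaks differed by 719 bp on the Cdkn2a side and by 46 bp on the Cdkn2b side.

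Smaller DMSO peaks continued the mark beyond the 3′ end of Cdkn2a. There were 6 in WT DMSO, 467 to 2802 bp wide, and 5 in mutant DMSO, 580 to 2876 bp wide. With peaks joined across gaps of at most 3 kb, the domain ran from 89252714 to 89316096 in WT DMSO (63.4 kb) and from 89252639 to 89316050 in mutant DMSO (63.4 kb). It therefore reached 21.8 kb past the end of Cdkn2a in each list, and 5.06 kb (WT) or 5.02 kb (mutant) beyond the Cdkn2b start. The next peak on the Cdkn2b side lay 30.9 kb away in WT and 31.0 kb away in mutant DMSO. On the other side the next peak was at 9.02 kb and 4.63 kb. The length of the domain and its likeness between genotypes depended on the joining rule. With gaps of at most 10 kb joined it measured 73.3 kb in WT and 81.9 kb in mutant DMSO. Without joining it measured 44.1 kb and 45.9 kb.

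Under GSK343 the domain was shorter and broken into separate peaks. In WT GSK343, 6 peaks of 2979 to 7472 bp lay from 89272575 to 89311052, and a separate peak of 823 bp lay 17.5 kb further out on the Cdkn2a side. Joined by the same rule they made 2 runs, 24.6 kb over Cdkn2a and 9.98 kb over Cdkn2b, with 3914 bp between them. In mutant GSK343, 12 peaks of 173 to 7467 bp lay from 89272627 to 89310975 and made runs of 23.6 and 8.61 kb, with 6133 bp between them. The total joined length was 34.6 kb in WT and 32.2 kb in mutant cells, 45.5% and 49.2% below the DMSO values. Bases inside peaks within the runs came to 52.4 kb under DMSO and 27.8 kb under GSK343 in WT cells, and to 54.7 kb and 19.98 kb in mutant cells. The joined lengths were thus closer to each other than the bases in peaks. They lay further apart under stricter peaks, at 34.6 kb in WT and 24.1 kb in mutant GSK343 with a q-value of at most 0.01. With that q-value the DMSO lengths were 47.3 kb in WT and 50.6 kb in mutant cells. Part of the joined DMSO length thus rested on weaker peaks, and the difference from GSK343 in WT cells was smaller without them.

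The outer edges under GSK343 again nearly coincided between genotypes, 52 bp apart on the Cdkn2a side and 77 bp apart on the Cdkn2b side. On the Cdkn2b side the last peak ended at the start of the gene, 20 bp upstream of the start site in WT GSK343 and 57 bp inside the gene in mutant GSK343. This matches the partial and absent coverage of the Cdkn2b promoter window shown above. The stretch upstream of Cdkn2b that the DMSO peaks covered had no mutant GSK343 peak and 20 bp of a WT GSK343 peak.

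**Figure D3:**
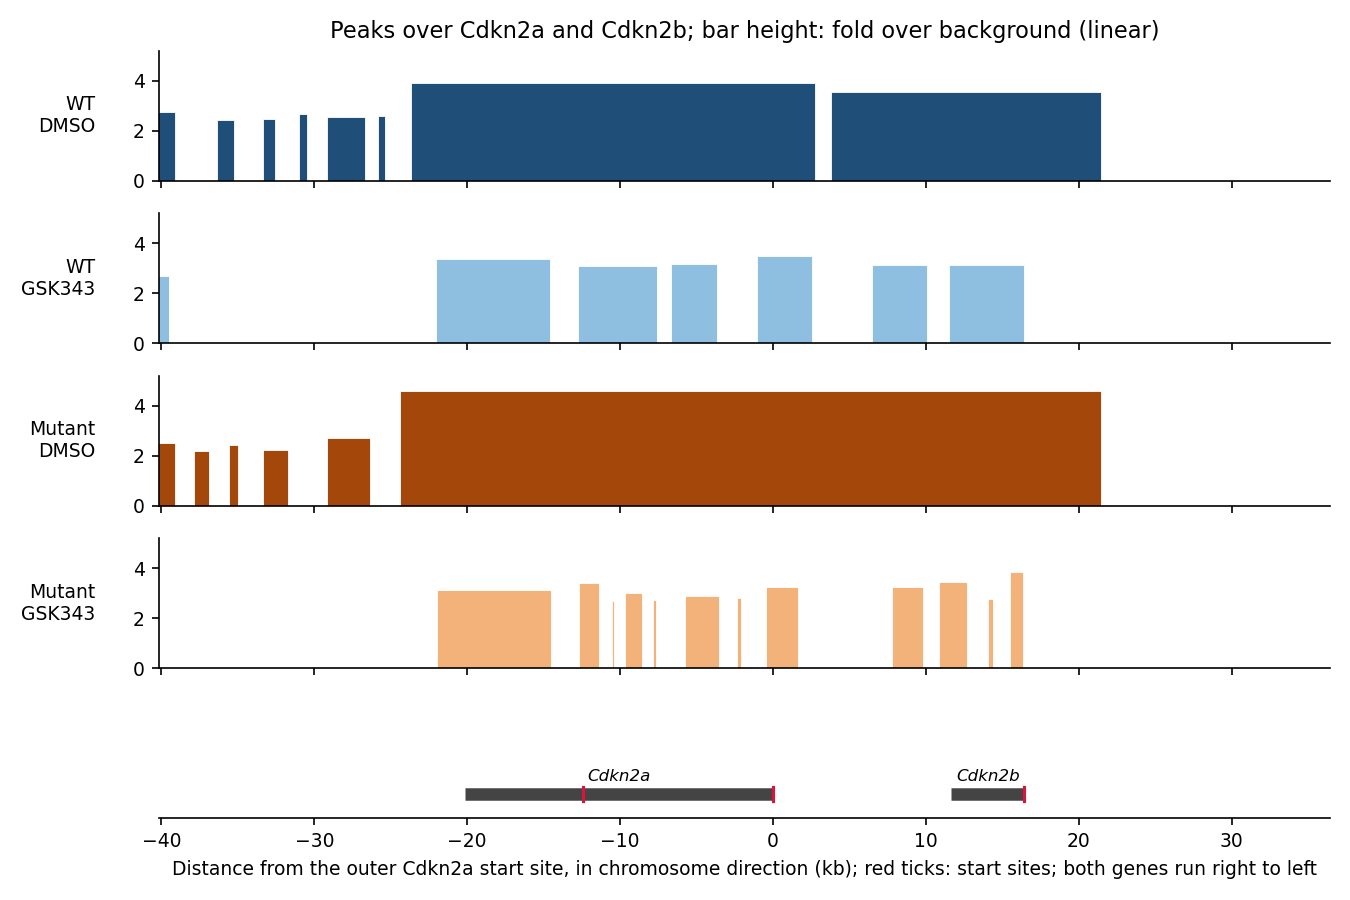
Peaks over Cdkn2a and Cdkn2b in the 4 lists, by distance from the outer Cdkn2a start in chromosome direction (x axis, kb), with bar height giving the fold over background (y axis, linear, comparable only within a list). The 2 WT DMSO peaks and the single mutant DMSO peak over the genes give way to 6 WT and 12 mutant GSK343 peaks, the last of which end at the Cdkn2b start.

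The whole stretch from 20 kb beyond Cdkn2a to 20 kb before Cdkn2b (89254473 to 89331032, 76.6 kb) was covered in WT cells by 66.1% under DMSO and 37.1% under GSK343, and in mutant cells by 69.0% and 26.1%. The GSK343 to DMSO ratios were 0.562 in WT and 0.378 in mutant cells. With only the gene bodies and the space between them they were 0.728 and 0.496, and with 50 kb each side 0.477 and 0.297. The mutant to WT ratio was 1.04 under DMSO and 0.703 under GSK343. The whole lists also differed, with 84.3 Mb in WT and 134 Mb in mutant DMSO peaks, and 21.1 Mb in WT and 17.0 Mb in mutant GSK343 peaks. All covered bases of each GSK343 list (100%) lay inside DMSO peaks of the same genotype, so no GSK343 peak extended the domain. Of the mutant GSK343 bases, 94.6% were also covered in WT GSK343, whereas 66.5% of the WT GSK343 bases were covered in mutant GSK343. Bases covered in all 4 lists came to 18.9 kb, or 24.7% of the stretch.

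The GSK343 lists were not lower by the same amount along the domain. The part of Cdkn2a from its inner start to its end, the stretch that holds the Ink4a transcript, went from 100% to 76.6% in WT and from 100% to 76.2% in mutant cells. The 12.4 kb between the outer and inner starts went from 100% to 71.3% in WT and to 44.1% in mutant cells. The space between the genes went from 91.1% to 54.4% in WT and from 100% to 38.3% in mutant cells. The Cdkn2b body stayed at 100% in WT GSK343 and stood at 48.5% in mutant GSK343. In the flanks, the 20 kb beyond Cdkn2a went from 50.1% to 12.7% in WT and from 56.3% to 9.23% in mutant cells. The 20 kb before Cdkn2b went from 25.3% to 0.1% and from 25.1% to 0%. Hence the 2 GSK343 lists were alike over the 3′ part of Cdkn2a. They were apart between the starts of Cdkn2a, in the space between the genes and over Cdkn2b.

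**Figure D4:**
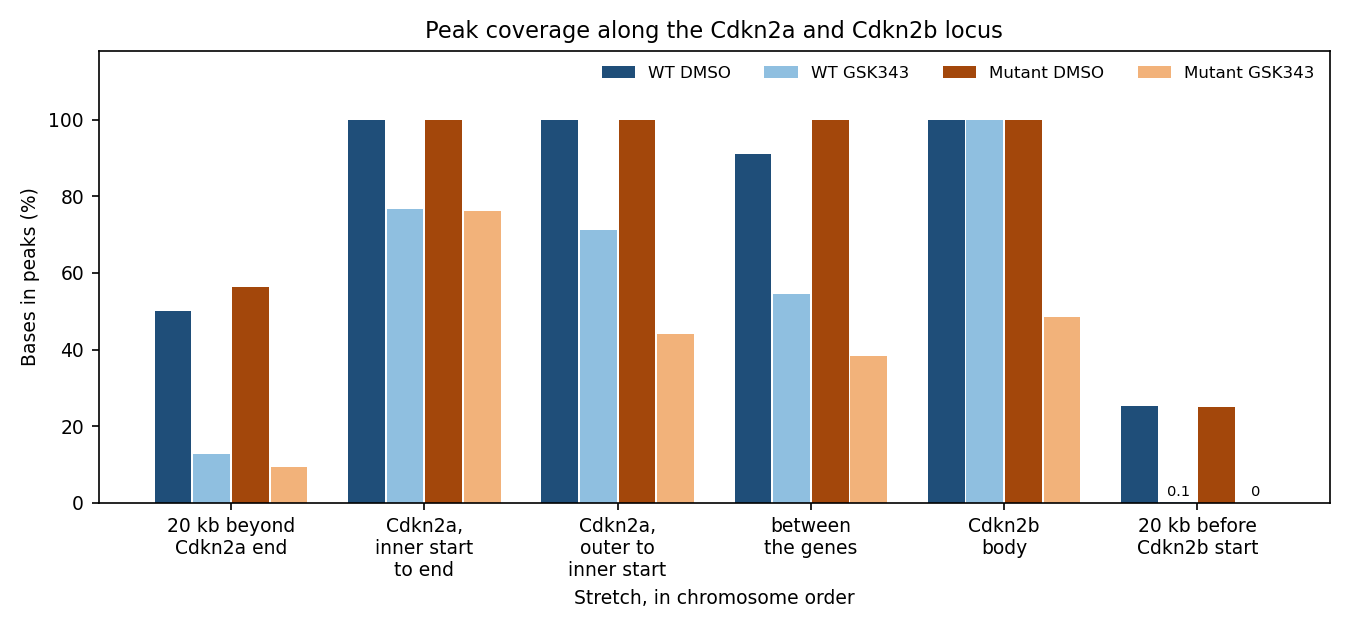
Share of bases inside peaks (y axis, percent) in 6 neighbouring stretches of the Cdkn2a and Cdkn2b locus in chromosome order (x axis), 1 bar for each list and no error bars. The stretch from the inner Cdkn2a start to its end is at 76.6% in WT GSK343 and 76.2% in mutant GSK343, while the Cdkn2b body is at 100% and 48.5%.

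Both GSK343 lists had a peak over the 3′ part of Cdkn2a and over each of its starts. The peak over the 3′ part was the widest of the domain, 7472 bp in WT and 7467 bp in mutant GSK343, wider than 97.7% and 98.6% of the peaks of its list. A peak spanned the inner Cdkn2a start in each list, from 89281851 to 89287014 in WT (5164 bp) and from 89281931 to 89283213 in mutant cells (1283 bp). Another spanned the outer start, from 89293564 to 89297163 in WT (3600 bp, fold 3.48) and from 89294154 to 89296236 in mutant cells (2083 bp, fold 3.27). Within the WT GSK343 list, the peak at the outer start had the highest fold of the 6, above 87.9% of the list. Within the mutant GSK343 list the highest of the 12 was the 888 bp peak next to the Cdkn2b start (89310088 to 89310975), with a fold of 3.87, above 99.1% of the list.

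The lncRNA gene Gm12610, which starts beside the outer Cdkn2a start and runs across Cdkn2b on the opposite strand, shares these peaks. Its body (89295180 to 89518621) went from 13.6% covered under DMSO to 4.72% under GSK343 in WT and from 16.0% to 2.78% in mutant cells. Of the 32 other RefSeq genes within 500 kb of the domain, 24 had a body peak in each DMSO list, 16 in WT GSK343 and 11 in mutant GSK343. The shares over all protein-coding genes were 31.8% and 34.6% in the WT and mutant DMSO lists, and 21.4% and 20.3% under GSK343. This is not a like comparison, because the 32 also hold noncoding genes and pseudogenes. Many of the 24 lie side by side, and Gm12610 overlaps the domain itself, so they are not independent. Among the 24 were the type I interferon genes Ifna1, Ifna4, Ifna5, Ifna6, Ifna7, Ifna11, Ifne and Ifnz, of which Ifna1, Ifna5 and Ifnz had a body peak in WT GSK343 and Ifna11 in mutant GSK343. Of the protein-coding genes with Gm names around Ifnz, Gm13290, Gm13272, Gm13277, Gm13278, Gm13285 and Gm13288 had a body peak in both GSK343 lists. Gm13289, Gm13276, Gm13275 and Gm13287 had a body peak in WT GSK343 only, and Gm13279 in mutant GSK343 only. Mtap, the protein-coding gene next to Cdkn2a and an enzyme of methionine salvage, had no body peak in any list. Dmrta1, a transcription factor gene on the other side, had its own peak in each list, 3.54 kb wide under DMSO and 2.28 kb under GSK343 in WT cells, and 4.00 kb and 2.13 kb in mutant cells. Among protein-coding genes, the Cdkn2a and Cdkn2b domain thus stood between Mtap, with no body peak, and Dmrta1, with its own peak. In each list another peak lay nearer the domain than Dmrta1, the first from 89347035 in WT DMSO, 89347013 in mutant DMSO, 89523355 in WT GSK343 and 89523527 in mutant GSK343.

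Cdkn1a (chromosome 17, 29090979 to 29100722, plus strand) encodes p21, a CDK inhibitor induced by p53. In WT cells its window was covered by 11.4% under DMSO and 4.12% under GSK343, above 77.2% and 84.0% of all genes. In mutant cells it was covered by 11.5% and 0.937%, above 68.8% and 73.9% of them. The GSK343 to DMSO ratio was 0.360 in WT and 0.0812 in mutant cells.

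The body of Cdkn1a held a single narrow peak in each of the 4 lists. In WT cells it ran from 29094277 to 29095108 (832 bp) under DMSO and from 29094543 to 29095076 (534 bp) under GSK343. In mutant cells it ran from 29094158 to 29095126 (969 bp) and from 29094652 to 29095117 (466 bp). The downstream edges of the 4 peaks lay within 50 bp of each other and the upstream edges within 494 bp. The 425 bp common to all 4 lay 883 to 1307 bp downstream of the inner start, and the CG-rich window of that start, shown above, lay outside the peak in every list. Whether this place is exonic or intronic was not analysed here. For its width the peak was strong under DMSO. Its fold was 4.03 in WT DMSO and 4.44 in mutant DMSO, above 97.9% and 98.6% of the peaks of those lists, while 45.0% of the peaks in each list were narrower. In WT GSK343 its fold of 3.71 was above 95.1% of the list. In mutant GSK343 its fold of 2.72 was above 25.5% of the list, and its −log10 q-value of 1.42 put it out of the list at a q-value of at most 0.01.

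A wider peak lay upstream of Cdkn1a at the edge of Trp53cor1, the lncRNA gene also known as lincRNA-p21. It ran from 29077845 to 29081977 (4133 bp, fold 2.95) in WT DMSO and from 29078117 to 29082316 (4200 bp, fold 3.13) in mutant DMSO. In WT GSK343 it was replaced by 2 peaks of 1257 and 259 bp, and in mutant GSK343 no peak was listed there. A further peak of 729 bp in WT DMSO and of 572 bp in mutant DMSO lay in Trp53cor1 at different places and had no counterpart in the other 3 lists.

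**Figure D5:**
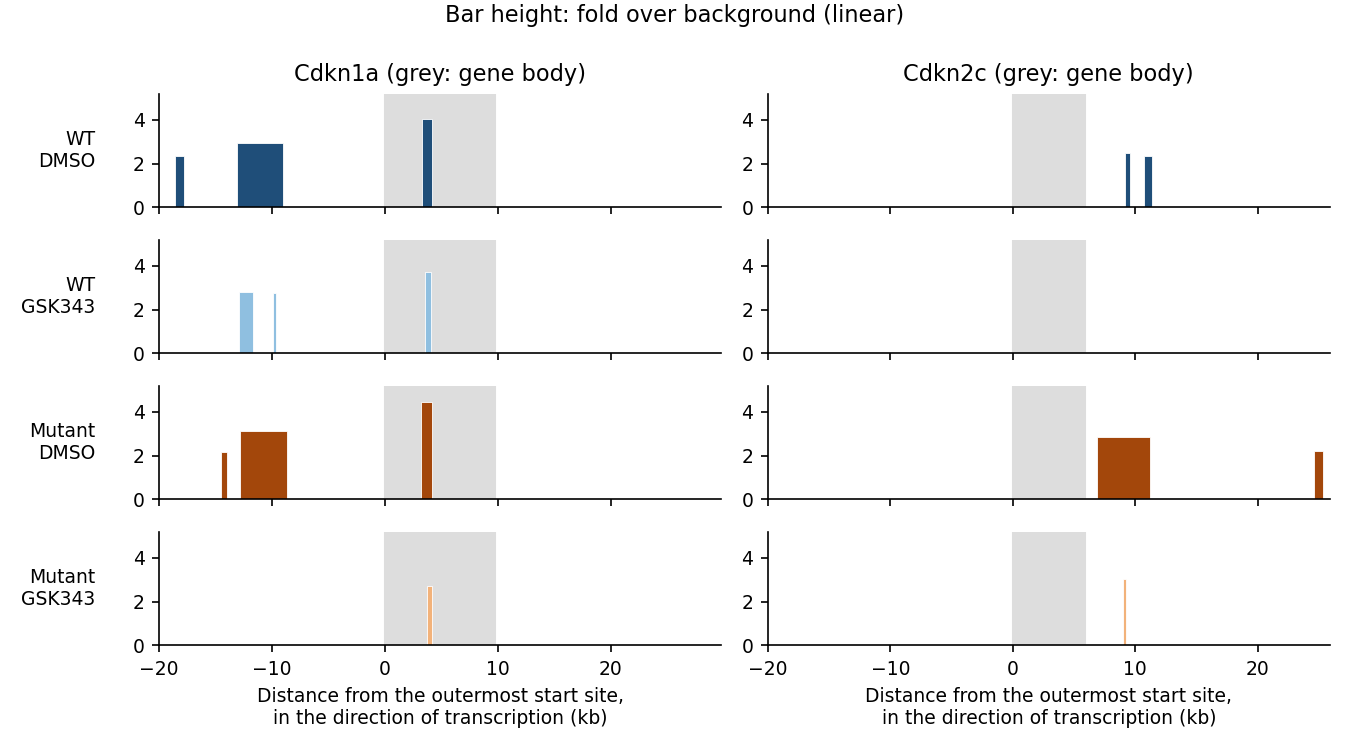
Peaks around Cdkn1a (left) and Cdkn2c (right) in the 4 lists, by distance from the outermost start in the direction of transcription (x axis, kb), with bar height giving the fold over background (y axis, linear, comparable only within a list) and the gene body in grey. The narrow peak in the body of Cdkn1a appears in all 4 lists, and the body of Cdkn2c holds none.

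Cdkn2c (chromosome 4, 109660876 to 109666756, minus strand) encodes Ink4c, an INK4 protein that restrains the cycle of B cells as they become plasma cells. Its body had no peak in any list. Its window was covered by 2.23% under DMSO and 0% under GSK343 in WT cells, and by 11.1% and 0.549% in mutant cells. The peaks lay beyond its 3′ end, over the lncRNA gene 9630013D21Rik (109652427 to 109657588). In WT DMSO they were 2 peaks of 624 and 401 bp, and in mutant DMSO 1 peak of 4335 bp from 109655535 to 109659869, which ended 1.006 kb from Cdkn2c. A second mutant DMSO peak, of 742 bp, lay in the lncRNA gene Gm40227 at the edge of the window (109641393 to 109642134). The mutant GSK343 list had 1 peak of 252 bp, from 109657514 to 109657765, and in WT GSK343 the nearest peak was 154 kb from the gene. Of the 6 genes Cdkn2c alone had a DMSO peak in its window and none in WT GSK343. Among all WT genes with a DMSO peak 37.7% did so. The 2 WT DMSO peaks had folds above 17.9% and 52.4% of their list and −log10 q-values of 1.37 and 1.89, and neither remained at a q-value of at most 0.01.

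Cdkn2d (chromosome 9, 21288459 to 21291421, minus strand) and Cdkn1b (chromosome 6, 134920401 to 134925525, plus strand) had no peak in their windows in any list. Cdkn2d encodes Ink4d, and Cdkn1b encodes p27, an inhibitor that accumulates in resting lymphocytes. The nearest peak to Cdkn2d lay 32.2 kb (WT) and 31.7 kb (mutant) away under DMSO, and 37.8 kb and 35.4 kb away under GSK343. For Cdkn1b the distance was 31.3 kb (WT) and 57.8 kb (mutant) under DMSO, and 115 kb in both GSK343 lists. With windows of 50 kb each side, all 6 genes had a peak in WT DMSO, 4 in WT GSK343 and 5 in each mutant list. The share of all genes with a peak in such wider windows was not measured, so these counts are not a result about the 6 genes.

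Cdkn1c, the third CIP/KIP gene, which is imprinted and not 1 of the 6, is given for comparison within the family. Its window (body at 143458339 to 143461059 on chromosome 7) went from 63.8% under DMSO to 22.3% under GSK343 in WT and from 86.0% to 19.7% in mutant cells. Its GSK343 to DMSO ratios were 0.350 and 0.229, against 0.579 and 0.389 for Cdkn2a. By covered share the order in WT DMSO was Cdkn2a, Cdkn2b, Cdkn1c, Cdkn1a and Cdkn2c, and in mutant DMSO it was Cdkn1c, Cdkn2a, Cdkn2b, Cdkn1a and Cdkn2c. Without replicates it cannot be said which neighbours in these orders differ beyond their spread.

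The other genes of the same pathway were taken as a list of 27, made up of cyclins, their kinases, pocket proteins, E2F factors and the p53 arm. A peak lay in the window of 16 of the 27 under DMSO and 10 under GSK343 in WT cells, and of 17 and 11 in mutant cells. Over all protein-coding genes the shares were 59.6% and 37.3% in WT and 64.8% and 34.1% in mutant cells, so the list was near the background. The median covered share of their windows was 0.784% in WT DMSO and 4.15% in mutant DMSO, and 0% in both GSK343 lists. None was covered as Cdkn2a and Cdkn2b were, since the highest window share in the list was 27.3% in WT DMSO and 34.9% in mutant DMSO. Body peaks were found on 7 under DMSO and 4 under GSK343 in WT cells, and on 7 and 3 in mutant cells. Over all genes 31.8% and 21.4% had a body peak in WT, and 34.6% and 20.3% in mutant cells. Ccnd1, the cyclin D1 gene, was covered over 23.9% of its body under DMSO and 3.75% under GSK343 in WT cells, and over 36.2% and 14.2% in mutant cells. For Ccna1, a cyclin known from the germ line, the shares were 32.8% and 10.4% in WT and 33.4% and 13.1% in mutant cells. For E2f8, an E2F that represses, they were 9.95% and 5.62% in WT and 16.8% and 1.75% in mutant cells. These 3 genes kept a body peak in all 4 lists. Body shares under DMSO were lower for Ccnd2 (2.60% in WT and 9.36% in mutant), Ccna2 (3.78% and 5.08%) and E2f7 (2.77% and 2.38%). Ccne2 (1.05%) had a body peak in WT DMSO only and E2f6 (5.76%) in mutant DMSO only. Of the kinases and cyclins that INK4 and CIP/KIP proteins act on, Cdk4, Cdk6, Cdk2, Ccnd3 and Ccne1 had no body peak in any list. Trp53 and Mdm2, which Arf acts through, had none either. Peaks did lie in some of their windows. In WT and mutant DMSO the covered share was 25.8% and 26.5% for Trp53, 21.6% and 27.2% for Cdk4, and 8.99% and 16.6% for Ccne1. The windows of Cdk6, Cdk2, Ccnd3 and Mdm2 had no peak in any list.

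Genes on other chromosomes or over 1 Mb away were ranked by how close their 4 window shares came to those of Cdkn2a and of Cdkn2b, as a Euclidean distance in percentage points over the 4 lists. The 3 nearest to Cdkn2a were Ccdc177 (distance 5.23), Otx1 (5.45) and Pdx1 (6.75). The 3 nearest to Cdkn2b were Hes2 (4.29), Rarg (4.87) and Pitx3 (5.04). Otx1, Pdx1, Hes2 and Pitx3 encode developmental transcription factors, and Rarg encodes a retinoic acid receptor. Otx1, for example, went from 78.8% to 43.1% in WT and from 87.1% to 34.2% in mutant cells.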

How the data were processed

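H3K27me3 ChIP-seq peaks of splenic B cells were analysed from 4 deposited lists, not from reads. The submitters' processing notes name bcl2fastq, Bowtie2 2.4.2, SAMtools 1.12, MACS2 2.2.7.1, bedtools 2.29.2, deepTools 3.5.1 and the build mm10 (GRCm38), and their settings are not given in the sources used here. Per the file names the authors removed blacklisted regions. Each peak's fold, on a linear scale relative to background, was deposited by the authors, as were its −log10 p-value and −log10 q-value. Ranks by fold were taken within a list. In the alternative settings the same thresholds on these values were applied to all 4 lists. Read depth is unknown, so an equal threshold need not be equally strict in each list. The deposited score is 10 times the −log10 q-value without decimals and was not used. Positions are counted from 1.

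Covered shares, joined runs and distances were computed with Python 3.11.15, numpy 2.4.6 and pandas 2.3.3 over gene bodies and RefSeq GRCm38.p6 promoter windows. A gene counted as marked with at least 1 bp in a peak. The coverage code was tested on simulated data (203 of 203 cases recovered) and against bedtools 2.31.1 (86524 of 86524 windows equal). Genes were named by list, by distance from the 6 genes, or by likeness of the 4 shares. The 6 genes and all lists were chosen with earlier results of these data known. No test between groups was possible with 1 list each. Alternatives were thresholds on q-value, p-value, fold and width, equal list sizes, windows of 50 kb or the body only, a minimum share of 10%, and joining across 10 kb or not at all.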

Additional observations from a re-analysis of the deposited data

How the results depend on the processing

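The 10 alternative settings gave 158 values for 22 results. Of these, 124 stayed within 1.5 times the value as deposited and 34 moved further. Of the moved values, 25 belonged to the Cdkn1a and Cdkn2c windows. A reversal was defined only for the GSK343 to DMSO ratios of the Cdkn2a and Cdkn2b stretch, as a crossing of 1. Those ratios stayed below 1 in each setting applied to them, from 0.477 to 0.728 in WT and from 0.297 to 0.496 in mutant cells. A lower share under GSK343 was near universal (99.6% of WT and 99.9% of mutant genes with a DMSO peak), so this says little about the stretch itself. With 50 kb each side the covered share of that stretch was 43.9% in WT DMSO, 20.9% in WT GSK343 and 14.6% in mutant GSK343. With the gene bodies and the space between them it was 70.7% in WT GSK343 and 49.6% in mutant GSK343. These shares moved because the windows hold other bases. Without joining of peaks the domain in mutant GSK343 measured 17.9 kb instead of 32.2 kb. The number of the 6 genes with a peak in mutant GSK343 was 2 instead of 4 under a −log10 p-value minimum of 5, with peaks of at least 1 kb, and with at least 10% of the window required. Shares over all genes were not measured under these settings, so it is not known whether the lower number is particular to the 6 genes. With only peaks of a fold of 3 or more, the Cdkn1a window had 1.67% in WT DMSO and 10.4% in mutant DMSO, and the Cdkn2c window had 0% in both DMSO lists. For Cdkn1a the peak at the edge of Trp53cor1 fell just below that threshold in WT DMSO (2.95) and just above it in mutant DMSO (3.13). Read depth is unknown, so a stretch outside peaks was not detected as marked by the authors' caller and may still carry the mark. No paired analysis was possible because there is a single peak list for every group, and leaving out a replicate could not be run for that reason.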
